A study of Cucumis sativus and Manihot esculenta and Brachypodium distachyon with 34 samples.

Results

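The leaf transcriptome of *Brachypodium distachyon* was examined gene by gene in chromosome order. All 31694 rows of its deposited expression table were used, 1 row per gene, of 93689 genes in the leaf RNA-seq tables of the 3 species of the series. Each identifier holds a chromosome digit and, after the letter g, a number that gives the order of the gene along that chromosome. By this rule 31679 genes lay on 5 chromosomes and 15 on unplaced scaffolds. The study surveyed DNA methylation across many flowering plants, together with RNA of many of the same species, partly from earlier work. The plants sampled here were of the line Bd21, and the labels give leaf as the tissue, with no age, treatment or time. RNA came from frozen leaf tissue, and the library was made with a stranded Illumina kit.

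*B. distachyon* is a small wild grass with a compact genome, used as a model for wheat, barley and other temperate cereals. In grass chromosomes, genes are dense towards the ends and sparser around the centromere, where transposons and other repeats accumulate. Neighbouring genes can resemble each other in expression because they arose by tandem duplication, share regulatory sequence or lie in the same kind of chromatin, and a stretch of silent genes can hold genes used in other organs as well as gene models with little evidence of transcription. In green leaves, a small set of transcripts for photosynthesis usually makes up much of the RNA. No annotation used here pairs the Bradi identifiers with gene names or products, so the genes are given by identifier and position, their roles are not given, and the leaf label could not be checked against marker genes.

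Expression was measured in FPKM, the fragments of a transcript divided by its length and by the total of mapped fragments, a level per length. There was 1 library, so no value has a replicate error and no test between conditions was possible, and the shares and levels are descriptions of this library. The study gives a read total for the library, but the table holds no fragment counts per gene, so no counting interval is given for a level. An entry of 0 may also stand for an estimate that failed, so such genes are said to be listed at 0. In a whole leaf, fewer cells of a type and less RNA per cell cannot be told apart. Of the 31694 genes, 9018 were listed at 0 (28.5%), 6261 lay above 0 and below 1 FPKM, and 16415 had at least 1 FPKM (51.8%) and are called expressed here. The median was 1.23 FPKM over all genes and 4.17 FPKM over the genes above 0. Genes at or above the 95th percentile, 57.0 FPKM, are called high: 1585 genes, which is 5.0% of all genes by construction, and they held 74.1% of the summed FPKM. The 10 highest genes held 19.4% of the sum and the 100 highest held 42.5%. A level of 1000 FPKM was reached by 64 genes and one of 10000 FPKM by 7.

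Chromosome 4 had the lowest share of expressed genes of the 5 chromosomes and chromosome 1 the highest. Expressed genes made up 45.7% of the 5379 genes of chromosome 4, against 54.2% of 9196 on chromosome 1, 52.9% of 7074 on chromosome 2, 53.2% of 6971 on chromosome 3 and 49.7% of 3059 on chromosome 5. Genes listed at 0 made up 32.8% of chromosome 4, against 27.5% of chromosome 1, 27.0% of chromosome 2, 27.3% of chromosome 3 and 29.7% of chromosome 5. Chromosomes 4 and 5, with the fewest genes, thus lay below the 3 larger ones in expressed genes and above them in genes at 0. The same order held at the upper end, where high genes made up 3.72% of chromosome 4 and 3.73% of chromosome 5, against 5.61%, 5.16% and 5.57% of chromosomes 1, 2 and 3. Among genes above 0, the median was 3.11 FPKM on chromosome 4, against 4.59, 4.31, 4.57 and 3.47 FPKM on chromosomes 1, 2, 3 and 5.

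**Figure D1:**
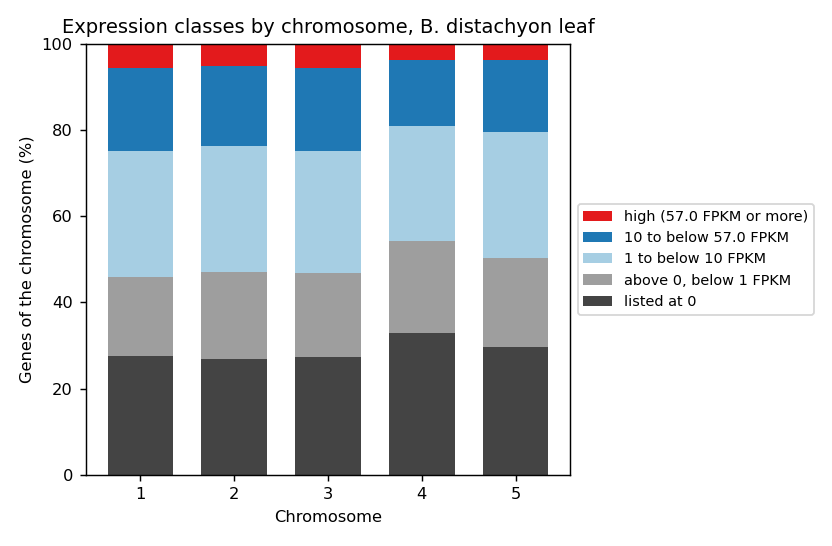
Share of the genes of each chromosome (vertical axis, %) in 5 classes of FPKM, with 1 bar per chromosome and 1 library. Genes listed at 0 reach 32.8% of chromosome 4, and the class of 57.0 FPKM or more is thinnest on chromosomes 4 (3.72%) and 5 (3.73%).

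Summed levels gave another picture of chromosome 4, since a few genes carried much of its signal. It held 17.0% of the listed genes and 20.7% of the summed FPKM, with a mean of 26.0 FPKM per gene, above those of chromosomes 1 (21.5), 2 (18.9), 3 (23.7) and 5 (13.2). Its 3 highest genes made up 32.2% of its own sum. They were Bradi4g08800 with 17000.9 FPKM, Bradi4g37210 with 14845 FPKM and Bradi4g09125 with 13159 FPKM, which ranked 2, 3 and 4 in the library. Without the 3 highest genes of each chromosome, the mean was 17.7 FPKM on chromosome 4, against 19.4, 15.2, 17.8 and 10.9 FPKM on chromosomes 1, 2, 3 and 5. Chromosome 4 thus joined the lowest median to the highest mean, and leaving out 3 genes placed its mean below those of chromosomes 1 and 3.

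The highest level of the library, 29950.3 FPKM, was that of Bradi3g26391 on chromosome 3, which alone held 4.42% of the summed FPKM and 18.1% of that of its chromosome. Next on chromosome 3 came Bradi3g17640 with 5853 FPKM and Bradi3g36760 with 5832 FPKM. On chromosome 1 the highest genes were Bradi1g15290 with 11557.5 FPKM, Bradi1g23610 with 4522 FPKM and Bradi1g56580 with 3658 FPKM. On chromosome 2 they were Bradi2g44856 with 10312.5 FPKM, Bradi2g16290 with 8607 FPKM and Bradi2g62315 with 6865 FPKM. The highest of chromosome 5 were lower, at 2899.7 FPKM for Bradi5g09530, 2345 FPKM for Bradi5g12150 and 1876 FPKM for Bradi5g12330, and chromosome 5 had none of the 20 highest genes. Of those 20, 7 lay on chromosome 4, 6 on chromosome 3, 4 on chromosome 2 and 3 on chromosome 1. Chromosomes 1 to 5 hold 29.0%, 22.3%, 22.0%, 17.0% and 9.65% of the listed genes. The table gives no transcript lengths or sequences, so how far length or reads shared between near-identical copies bear on these levels was not tested.

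The neighbours of the highest genes had levels close to those of genes in general. Of the 40 genes directly before and after the 20 highest, 14 were listed at 0 (35%, against 28.5% of all genes), 23 were expressed (57.5%, against 51.8%) and 1 was high (2.5%, against 5.0%), and their median was 1.53 FPKM. That high neighbour was Bradi1g23600, with 71.6 FPKM, directly before Bradi1g23610. Bradi3g26391 lay between Bradi3g26385 with 17.5 FPKM and Bradi3g26395 with 2.24 FPKM. Bradi1g56580 lay between genes listed at 0 on both sides. So did Bradi5g12150, which ranked 30 in the library and is not among the 20 highest.

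To follow expression along the chromosomes, each was divided into 20 parts of equal gene number. The share of expressed genes per part ran between 24.2% and 64.7% over the 100 parts, with a median of 52.1% and an interquartile range of 48.5% to 55.6%. Part 6 of chromosome 4 was the lowest and part 18 of chromosome 3 the highest, Bradi3g52006 to Bradi3g54940. The parts of chromosomes 1, 2, 3 and 5 varied less than those of chromosome 4. The standard deviation among the 20 parts was 5.82, 4.56, 4.58 and 5.08 percentage points there, against 9.64 on chromosome 4. Part 1 held 460 genes on chromosome 1 and 153 on chromosome 5, so these deviations rest on parts of unlike size. Of the 7 parts below 40%, 5 were on chromosome 4, 1 on chromosome 5 and 1 on chromosome 1, and of the 7 parts at or above 60%, 4 were on chromosome 1, 2 on chromosome 2 and 1 on chromosome 3.

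The chromosome ends were not uniformly the most expressed parts. Part 1 held from 45.8% to 56.1% expressed genes over the 5 chromosomes and part 20 from 50% to 58.6%, while part 10, in the middle by gene order, held from 37.5% to 55.0%. On chromosome 1 the lowest was part 15 (39.8%), on chromosome 2 part 12 (44.4%), on chromosome 3 part 6 (45.3%) and on chromosome 5 part 3 (37.3%). Part 3 of chromosome 5, Bradi5g03041 to Bradi5g04560, also held only 1 high gene among 153, Bradi5g04560 with 75.7 FPKM. Of all 100 parts, high genes were most frequent in part 2 of chromosome 1, Bradi1g03947 to Bradi1g07470, with 46 among 460 genes.

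**Figure D2:**
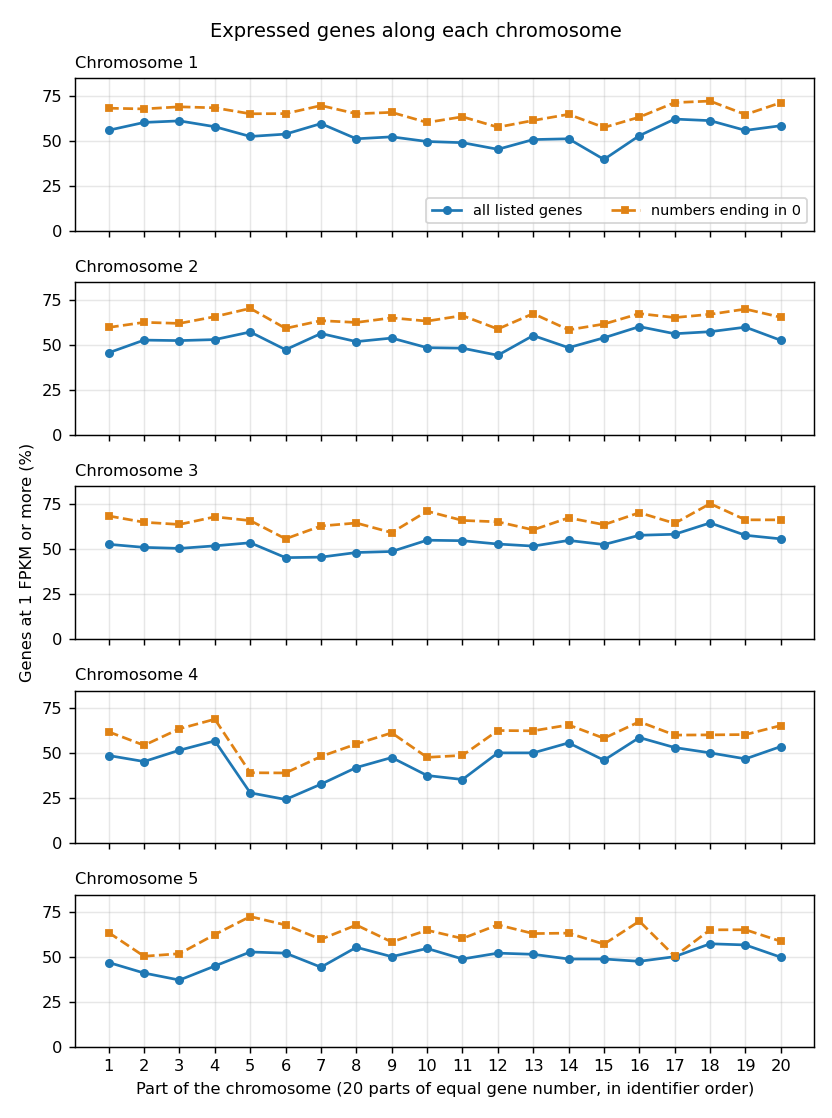
Share of genes at 1 FPKM or more (vertical axis, %) in 20 parts of equal gene number along each chromosome, 1 panel per chromosome, for all listed genes (circles) and for genes whose number ends in 0 (squares). Chromosome 4 drops to 24.2% in part 6, while no part of chromosomes 2 and 3 lies below 44.4%.

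A stretch of low expression on chromosome 4 covered its parts 5 to 7, Bradi4g08795 to Bradi4g15043, with 807 genes. These parts were singled out after their values were seen. Of their genes, 28.3% were expressed and 47.0% were listed at 0, against 48.8% and 30.3% in the other parts of chromosome 4 and 53.0% and 27.6% on the other chromosomes. The median over all genes was 0.072 FPKM in the stretch, against 0.868 FPKM in the rest of the chromosome and 1.38 FPKM on the other chromosomes. Its edge towards the start of the chromosome was sharp by this measure, since part 4 held 56.9% expressed genes and part 5 held 27.9%. Towards the other end the share rose by steps, with 32.7% in part 7, 42.0% in part 8 and 47.6% in part 9, before another dip to 37.5% and 35.3% in parts 10 and 11.

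As cut by equal gene number, the same stretch held some of the highest levels of the library. This rests on the cut. With parts of equal width of the number, Bradi4g08800 and Bradi4g09125 fall in part 4, with 52.5% expressed genes, and not in part 5, with 24.4%. Bradi4g08800, directly after its first gene, had 17000.9 FPKM, and Bradi4g09125 had 13159 FPKM, and together with Bradi4g09257 at 1449 FPKM they made up 97.9% of the summed FPKM of part 5. Of all 100 parts, only part 9 of chromosome 3 held more of the summed FPKM, and part 5 of chromosome 4 held 4.77% of the library against 4.95% there, while only part 6 of chromosome 4 had a lower share of expressed genes. The highest of part 6 was Bradi4g10920 with 827.6 FPKM, and that of part 7 was Bradi4g13890 with 377.5 FPKM. Directly after Bradi4g09125 came 18 genes, Bradi4g09130 to Bradi4g09190, that all lay below 1 FPKM, 10 of them at 0 and the highest at 0.504 FPKM.

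In other parts too, a single gene set the sum. Bradi3g26391 made up 89.2% of part 9 of chromosome 3. On chromosome 4, Bradi4g21170 (8430.1 FPKM) made up 82.7% of part 10, Bradi4g37210 made up 80.7% of part 17, and Bradi4g24367 (11008 FPKM) made up 74.8% of part 11. Parts 10 and 11 of chromosome 4 were among the 6 parts with the lowest shares of expressed genes. By contrast, part 2 of chromosome 1 held 2.66% of the library and its highest gene, Bradi1g05750 with 2666 FPKM, made up 14.8% of the part.

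Gene numbers were not evenly used, and this went with expression. Most numbers end in 0, and 38.8% of the chromosome genes have another ending. Genes with another ending were listed at 0 in 43.4% of 12277 cases and expressed in 32.4%, against 19.01% and 64.1% of 19402 genes whose number ends in 0. The median was 0.143 FPKM with another ending and 3.52 FPKM with an ending in 0. Of the high genes on chromosomes, 212 had another ending and 1371 an ending in 0. What sets the ending of a number is not given in the sources used here.

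The ending 7 stood apart from the others, which was seen only after the values were known. Of 2912 genes ending in 7, 18.9% were listed at 0 and 60.6% were expressed, with a median of 2.06 FPKM, close to the 19.01% and 64.1% of genes ending in 0. The endings 1 to 6, 8 and 9 each had from 48.3% (ending 2) to 54.8% (ending 3) of their genes at 0, and from 19.9% (ending 3) to 28.4% (ending 2) expressed. On all 5 chromosomes the pattern was the same: genes ending in 7 were at 0 in 17.0 to 21.4% of cases, genes ending in 0 in 17.7 to 23.0%, and the remaining genes in 50 to 51.9%. At the upper end the ending 7 lay between the classes, with 3.16% high genes, against 7.07% for the ending 0 and 1.28% for the rest. Exceptions among the rest included the highest gene of the library, Bradi3g26391, and also Bradi4g09125, Bradi2g44856 and Bradi2g62315.

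**Figure D3:**
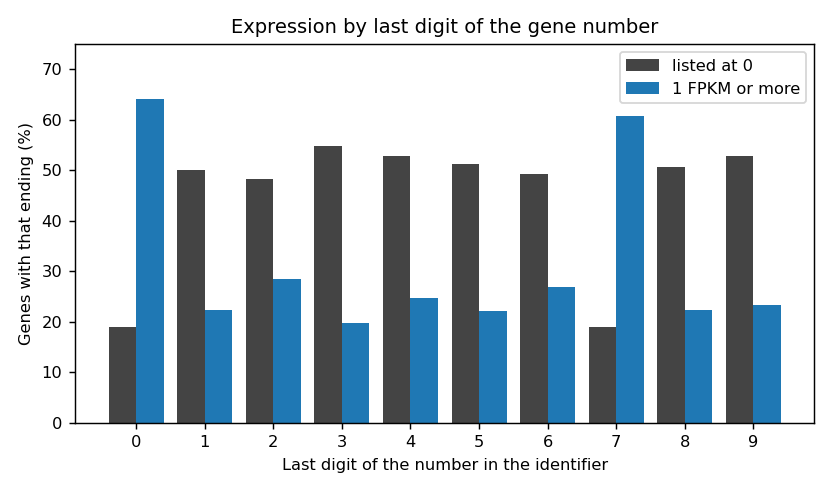
Share of genes listed at 0 and at 1 FPKM or more (vertical axis, % of the genes with that ending) by the last digit of the gene number, over all 5 chromosomes. The endings 0 and 7 have 19.01% and 18.9% of genes at 0, and each of the other endings has at least 48.3%.

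The mix of endings differed between chromosomes and along them. Endings other than 0 made up 44.2% of the genes of chromosome 4, against 36.6% of chromosome 1, 37.3% of chromosome 2, 37.8% of chromosome 3 and 41.1% of chromosome 5. They made up 58.1% of the low stretch of chromosome 4, against 41.8% of the rest of that chromosome. Over the 100 parts, Spearman's rho between the share of endings other than 0 and the share of expressed genes was -0.709, with all parts taken from the same library. Among genes ending in 0 alone, chromosome 4 still had the most genes at 0, 23.0%, against 18.5%, 18.0%, 17.7% and 19.4% on chromosomes 1, 2, 3 and 5. In its low stretch 42.0% of the genes ending in 0 were expressed, against 60.8% in the rest of chromosome 4 and 65.0% on the other chromosomes. The dip was also seen within this class, at a higher level. These genes are among those whose low values singled out the stretch, so this is not a separate result. Endings other than 0 gave a narrower spread of genes at 0, from 45.1% on chromosome 4 and 44.5% on chromosome 5 to 42.0% on chromosome 2.

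Skipped numbers were unevenly spread along the chromosomes. A step of more than 50 between consecutive listed genes occurred 160 times, and the largest step was 200. Of these steps, 20 of the 32 on chromosome 1 fell in its part 11, 24 of 36 on chromosome 2 in part 10, 12 of 33 on chromosome 3 in part 9, 16 of 31 on chromosome 4 in part 9 and 10 of 28 on chromosome 5 in part 4. These were the parts with the most such steps on each chromosome, and part 11 of chromosome 1 spanned 5765 numbers, against a median of 3850 over its parts. Genes beside such a step were expressed in 42.8% of 229 cases and listed at 0 in 38.4%, against 51.9% and 28.4% of the other genes. The low stretch of chromosome 4 lay before the part where its numbers were most often skipped, and that part 9 itself held 47.6% expressed genes. Whether the skipped numbers correspond to genes was not analysed here.

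Neighbouring genes were weakly alike. Over 31674 pairs of adjacent genes, Spearman's rho of FPKM was 0.131, and over the 16921 pairs with both genes above 0 it was 0.097. The pairs share 1 library and 1 annotation, and rho is given as a description. It declined to 0.077 between genes 2 places apart, 0.043 at 3 places and 0.026 at 5 places, and lay between 0.008 and 0.024 at distances of 10 to 100 genes. In these terms the likeness of neighbours reached over a few genes. By chromosome, rho of adjacent genes was 0.168 on chromosome 4, against 0.128, 0.114, 0.109 and 0.124 on chromosomes 1, 2, 3 and 5.

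Stated as shares, a gene directly after a gene at 0 was itself at 0 in 36.2% of cases, against 25.3% after a gene above 0. At a distance of 5 genes the shares were 29.5% and 28.0%, near the 28.5% of all genes. A gene directly after a high gene was high in 7.39% of 1583 cases, against 4.87% after a gene that was not high, beside 5.0% of all genes. After a gene at 0, 4.27% were high. These shares also went with the endings: where both numbers of a pair end in 0, a gene followed a gene at 0 with a value of 0 in 24.97% of cases, against 16.4% after a gene above 0, and where neither does, in 51.2%, against 40.6%. Pairs with 1 number of each kind had a rho of -0.009, and pairs whose numbers differ by at most 5 had a rho of -0.052.

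**Figure D4:**
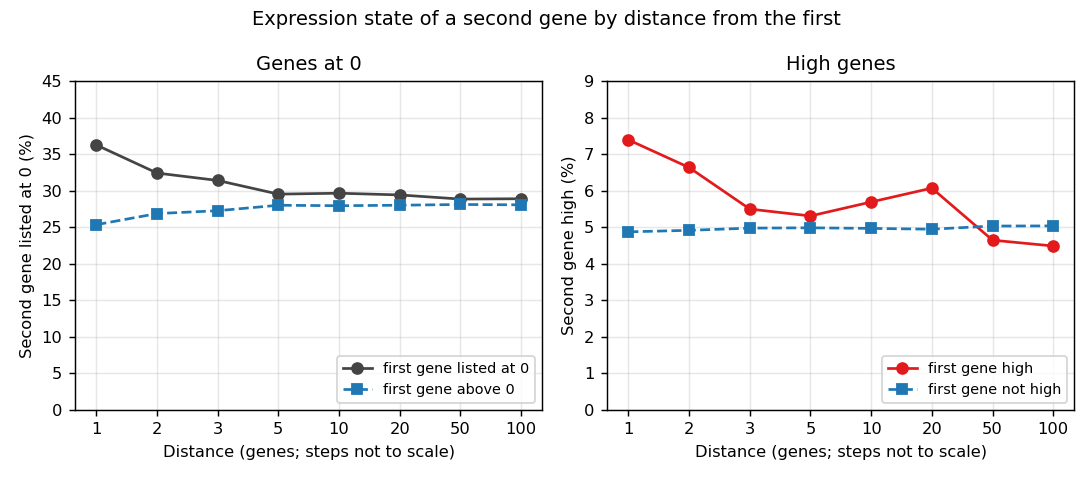
Share of genes listed at 0 (left, %) and of high genes (right, %) at a given distance in genes (horizontal axis, 1 to 100, not to scale) from a gene in the named state. Directly beside a gene at 0 the share at 0 is 36.2%, against 25.3% beside a gene above 0, and the curves lie within 2 percentage points of each other from a distance of 5 genes.

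Where both neighbours were expressed, their levels often differed widely. Ratios between genes farther apart were not taken, so whether neighbours differ less than other pairs was not tested here. Over 9394 adjacent pairs with both genes above 1 FPKM, the higher level was 3.34 times the lower in the median pair, under 2 times in 30.97% of pairs, at least 10 times in 20.6% and at least 1000 times in 17 pairs. The widest ratio was that of Bradi3g26391 to Bradi3g26395, 13347-fold, followed by Bradi4g08800 to Bradi4g08810 (1.61 FPKM), 10570.3-fold, and Bradi3g42620 (5829 FPKM) to Bradi3g42627 (1.12 FPKM), 5226-fold. Each of the 10 widest ratios had a gene above 3000 FPKM on one side and one below 5 FPKM on the other. The choice of the widest ratios among genes above 1 FPKM favours such pairs, so this is not a separate result.

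Some neighbours were both high. Of the 10 pairs with the highest lower member, 4 differed by under 2 times, beside 30.97% of all pairs with both genes above 1 FPKM. The choice by a high lower member limits how far a pair can differ, so no conclusion is drawn from these shares. The pair with the highest lower member was Bradi1g06430 with 1325 FPKM and Bradi1g06435 with 484.4 FPKM. Next came Bradi4g44400 and Bradi4g44410 with 338.3 and 1546 FPKM, Bradi1g06851 and Bradi1g06861 with 348.3 and 330.2 FPKM, a ratio of 1.05, and Bradi1g24860 and Bradi1g24870 with 306.6 and 2494 FPKM, a ratio of 8.13. Bradi1g26400 and Bradi1g26403 differed little, at 282.4 and 259.2 FPKM, and so were Bradi3g37670 and Bradi3g37680, at 261.0 and 215.4 FPKM. By chromosome, 5 of the 10 pairs were on chromosome 1, which held 516 of the 1583 high genes on chromosomes. Another 3 pairs were on chromosome 3, 1 on chromosome 2 and 1 on chromosome 4. Such pairs can be near-identical copies that share reads, in which case the split between them is uncertain, and whether they are copies was not analysed here.

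Runs of high genes were few and short, with high genes set at 5.0% of all genes by construction. After a high gene, 7.39% of genes were high. Whether the runs differ from what such shares give was not tested. Of the 1583 high genes on chromosomes, 1358 (85.8%) had no high gene beside them, 200 formed 100 pairs, and 25 formed 8 runs of 3 or more. The longest run had 4 genes, on chromosome 1: Bradi1g07140 with 106.9 FPKM, Bradi1g07150 with 64.5 FPKM, Bradi1g07160 with 200.7 FPKM and Bradi1g07170 with 616.3 FPKM. It was bordered by Bradi1g07133 with 6.90 FPKM and Bradi1g07180 with 16.3 FPKM. Levels within the run thus differed among each other, and both borders lay below the threshold for high genes.

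The other runs of high genes had 3 members each. At the end of chromosome 4, Bradi4g44390, Bradi4g44400 and Bradi4g44410 had 148.3, 338.3 and 1546 FPKM, followed directly by Bradi4g44420 at 0. On chromosome 2, Bradi2g17660, Bradi2g17670 and Bradi2g17680 had 137.4, 62.7 and 812.7 FPKM, after Bradi2g17655 at 0. On chromosome 1, Bradi1g55100, Bradi1g55110 and Bradi1g55120 had 790.5, 66.6 and 90.01 FPKM, and Bradi1g51650, Bradi1g51660 and Bradi1g51670 had 184.1, 111.4 and 586.1 FPKM. Bradi1g59860, Bradi1g59870 and Bradi1g59880 had 114.0, 83.4 and 95.5 FPKM and were bordered by a gene at 0 on each side. Bradi3g15040, Bradi3g15050 and Bradi3g15060 had 189.7, 124.4 and 81.3 FPKM, and Bradi4g08667, Bradi4g08680 and Bradi4g08690 had 188.6, 72.2 and 127.8 FPKM. This last run lay in part 4 of chromosome 4, the part before the low stretch. Of the 25 genes in these runs, 24 had numbers ending in 0 and 1 had a number ending in 7. Of all 1583 high genes on chromosomes, 1371 had numbers ending in 0 and 92 had numbers ending in 7. Chromosome 1 had 4 of the 8 runs and 516 of the 1583 high genes.

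Expressed genes, which make up 51.8% of all genes, formed longer runs than high genes, which make up 5.0%. How far their number accounts for this was not tested. There were 16 runs of at least 12 expressed genes, and the longest had 17, once on chromosome 3 and once on chromosome 1. The first, Bradi3g48410 to Bradi3g48560, ranged between 1.86 FPKM (Bradi3g48441) and 106.3 FPKM (Bradi3g48480), with a median of 25.8 FPKM. In the second, Bradi1g75840 to Bradi1g76000, the range was 1.44 FPKM (Bradi1g75887) to 44.2 FPKM (Bradi1g75930), with a median of 6.395 FPKM. A gene below 1 FPKM closed each of them on both sides.

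Genes listed at 0, which make up 28.5% of all genes, also formed more runs than high genes. How far their number accounts for this was not tested. Of 9012 genes at 0 on chromosomes, 3810 stood alone, and 896 (9.94%) lay in 145 runs of at least 5. Chromosome 4 had 39 of these runs, or 7.25 per 1000 genes, against 3.37, 4.10, 4.88 and 3.92 per 1000 genes on chromosomes 1, 2, 3 and 5. It holds 17.0% of the listed genes and had 11 of the 25 runs of 8 or more. The low stretch of chromosome 4 held 12 of its 39 runs (30.8%) in 807 of its 5379 genes, or 14.9 runs per 1000 genes, against 5.91 per 1000 genes in the other parts of the chromosome. Since the stretch was singled out for its low values, with 47.0% of its genes at 0, this higher rate is not a separate result. Numbers not ending in 0 made up 60.8% of the genes in runs at 0, against 38.8% of all genes, and numbers ending in 7 made up 5.92%, against 9.19%. This mix was near that of genes at 0 in general. Of the 9012 genes at 0, 5323 had numbers not ending in 0 and 550 had numbers ending in 7.

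**Figure D5:**
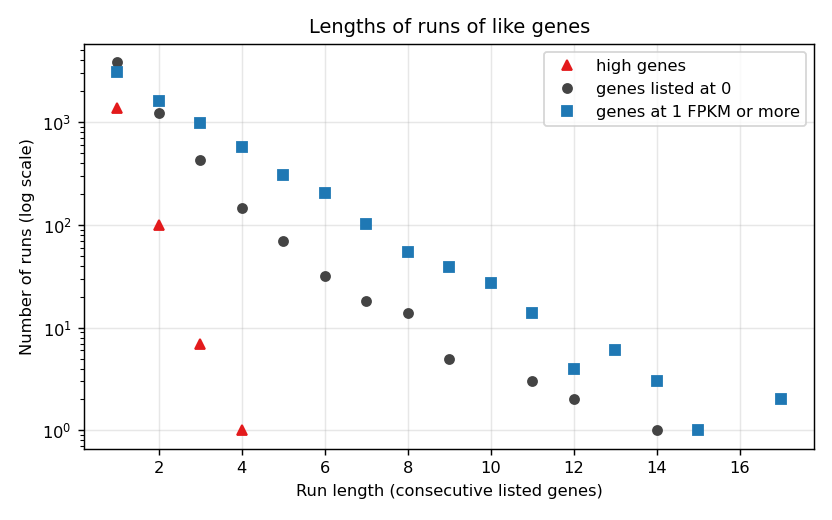
Number of runs (vertical axis, log scale) by run length in consecutive listed genes (horizontal axis) for high genes, genes listed at 0 and expressed genes. Runs reach 4 high genes, 14 genes at 0 and 17 genes at 1 FPKM or more.

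The longest run at 0 had 14 genes, Bradi3g02350 to Bradi3g02400, in part 1 of chromosome 3, with 3 numbers ending in 0. Its borders were sharp, with 63.7 FPKM in Bradi3g02340 directly before it and 119.9 FPKM in Bradi3g02410 directly after, both high genes. Within it the numbers from Bradi3g02390 to Bradi3g02398 follow in steps of 1. A run of 12 genes on chromosome 4, Bradi4g26056 to Bradi4g26100, lay between Bradi4g26050 with 4.79 FPKM and Bradi4g26106 with 0.473 FPKM. The other run of 12, Bradi5g22435 to Bradi5g22503 on chromosome 5, lay between Bradi5g22430 with 16.5 FPKM and Bradi5g22510 with 51.4 FPKM. Next came 3 runs of 11, Bradi4g09652 to Bradi4g09760 in the low stretch, Bradi4g39725 to Bradi4g39770 and Bradi5g06409 to Bradi5g06599. In the last of these the numbers rise in equal steps of 19. Of the 71 genes in these 6 runs, 51 had numbers not ending in 0, beside 5323 of all 9012 genes at 0 on chromosomes.

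Some long runs at 0 bordered on expressed genes. Of the 144 runs of at least 5 with a gene on each side, 58 had expressed genes on both sides (40.3%), against 49.3% of 5597 runs of 1 to 4 genes at 0, and 22 had a high gene on at least one side (15.3%), against 12.9%. Bradi2g36770 with 125.9 FPKM directly preceded a run of 9 on chromosome 2, and Bradi2g38660 with 152.6 FPKM preceded another. When genes below 1 FPKM were counted as well, a description added after the values were seen, 13 runs had at least 15 genes, and 9 of them were on chromosome 4, 6 in its low stretch. Chromosome 4 holds 17.0% of the listed genes and the stretch 2.55%. The stretch was singled out for few expressed genes, so long runs below 1 FPKM there are not a separate result. The longest of the 13 runs, Bradi4g12804 to Bradi4g12917 in part 6, had 29 genes, with 22 at 0 and none above 0.702 FPKM. Of its numbers, 25 did not end in 0. The next, of 20 genes, was Bradi4g11715 to Bradi4g11886, in the same part.

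Some high genes lay between genes listed at 0, in shares near those of other genes above 0. In 104 cases, 6.57% of the high genes on chromosomes, both nearest genes were listed at 0, against 7.03% of the genes above 0 that were not high and 9.20% of all genes. The 2 nearest genes on each side were at 0 in 14 cases (0.884%), against 0.934% and 1.66%. The highest of these 14 were Bradi1g56580 with 3658 FPKM, with 3 genes at 0 before it and 2 after, Bradi5g12150 with 2345 FPKM, with 2 on each side, and Bradi1g52460 with 1594 FPKM, with 2 before and 3 after. The next were lower by a wide margin, at 284.9 FPKM for Bradi1g30811, 270.4 FPKM for Bradi4g38540 and 238.6 FPKM for Bradi1g58600. Bradi1g58600 had 3 genes at 0 before it and 5 after, and the nearest genes above 0 beyond them had 0.046 and 0.361 FPKM. Bradi4g38540 lay between silent genes but within reach of other high genes, with 125.2 FPKM in Bradi4g38510 and 155.7 FPKM in Bradi4g38580. Further cases were Bradi4g23850 (131.8 FPKM), Bradi3g22030 (124.0 FPKM), Bradi2g37000 (104.2 FPKM) and Bradi4g40174 (84.3 FPKM).

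The suffix that follows the point in an identifier also went with expression. Genes listed under the suffix 1 were expressed in 49.7% of 26553 cases and listed at 0 in 30.1%. With the suffix 2 the shares were 55.9% and 24.1% of 3928 genes, with the suffix 3 they were 80.7% and 7.41% of 823 genes, and with a suffix of 4 or more they were 92.0% and 2.93% of 375 genes. Median levels rose in the same order, at 0.978, 1.80, 6.84 and 8.73 FPKM.

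Leaves of *Brassica rapa* and cucumber (*Cucumis sativus*) were sequenced with 1 library each and are set beside *B. distachyon* without a test. Genes listed at 0 made up 28.5% of 31694 genes in *B. distachyon*, 29.5% of 40492 in *B. rapa* and 24.7% of 21503 in *C. sativus*, and expressed genes made up 51.8%, 45.7% and 56.6% in the same order of species. Spearman's rho of adjacent genes was 0.131 in *B. distachyon* and 0.078 in *B. rapa*. A gene directly after a gene at 0 was at 0 in 36.2% of cases in *B. distachyon* and 35.2% in *B. rapa*. The species have different annotations, and how these bear on the values was not tested.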

How the data were processed

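RNA-seq of 1 leaf library of *B. distachyon* was analysed. Per the labels and methods, the authors trimmed reads with Trimmomatic 0.32, aligned them with TopHat2 2.0.13 and a gene annotation, and quantified transcripts with Cufflinks 2.2.1. The deposited values are FPKM, 1 row per gene. Of these, 1437 hold more than 6 significant digits, and whether some are sums over transcripts was not tested. The genome version is not given in the labels for this library, and the table holds no coordinates.

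Chromosome and order were read from the identifiers. SciPy 1.17.1, pandas 2.3.3 and NumPy 2.4.6 under Python 3.11.15 gave shares, medians, Spearman's rho and runs, and Matplotlib 3.10.9 drew them. Other thresholds, pseudocounts, part widths and numbers ending in 0 alone were tried as alternatives. Logarithms used a pseudocount of 1. The run and neighbour functions were tested on simulated data. No test across genes was made, since genes are not replicates. The members and lists were chosen with earlier results of these data known.

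Named genes are the 3 highest per chromosome, the members of the 3 longest runs at 0 and of high genes, the 10 highest high genes with the 2 nearest genes on each side at 0, and the 10 most unlike and 10 highest adjacent pairs. Others named here were chosen after their values were seen. Gene groups by product, also planned, could not be formed without an annotation. Small RNA files of other species were not used here.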

Additional observations from a re-analysis of the deposited data

How the results depend on the processing

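With 1 library, no value has a replicate spread, and without counts per gene no interval separates low FPKM values from 0. No paired analysis was possible because *B. distachyon* RNA was measured in 1 library. Of the 5 chromosomes, chromosome 4 had the most genes at 0 and the fewest expressed in each setting below, other than 0.5 FPKM, where it was set against the others pooled.

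Genes below 0.1 FPKM made up 37.3% of chromosome 4 and 31.5% of the other chromosomes, and genes at 0 among numbers ending in 0 made up 23.0% and 18.3%. Expressed genes made up 52.1% and 59.0% from 0.5 FPKM, 27.8% and 34.4% from 5 FPKM, and 58.7% and 65.0% among numbers ending in 0. Without parts 5 to 7, chosen after seeing the data, chromosome 4 had 30.3% at 0 and 48.8% expressed. Its median was 0.623 FPKM over all genes, against 1.38 FPKM on the other chromosomes, and the means of log2(FPKM + 1) were 1.62 and 1.94. From 5 FPKM, the lowest part held 13.4% (the fifth of chromosome 4) and the highest 44.8%, while parts of equal width of the number gave 24.4% and 63.6%.

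The rank correlation of neighbours was 0.135 for numbers at most 10 apart, 0.097 for pairs above 0 and 0.086 among numbers ending in 0. Pearson's r of log2 values was 0.107 with a pseudocount of 1, 0.125 with 0.1 and 0.071 with 10. Among numbers ending in 0 there were 20 runs of at least 5 genes at 0 in place of 145, and 10 runs of high genes in place of 8. This setting leaves out all other genes, so its neighbours can have other genes between them. Of its genes, 19.01% were at 0 and 7.07% were high. Directly adjacent pairs with both numbers ending in 0 had a rho of 0.0999. Runs of at least 3 high genes numbered 53 from the 90th percentile (29.0 FPKM) and 2 from 100 FPKM. The cause of these changes was not tested.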

Other observations

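Of the 15 genes on unplaced scaffolds, which enter no comparison by chromosome, 6 were listed at 0 and 5 had at least 1 FPKM. The highest were Bradi0011s00100 with 310.3 FPKM and Bradi0015s00100 with 57.0 FPKM, both high genes, followed by Bradi0013s00100 with 7.85 FPKM.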
